A study of Mus musculus with 6 samples.

Results

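The account below concerns 6 genes of the BCL-2 family: Bcl2, Bcl2l1 and Bcl2l2, whose proteins are the targets of the drug navitoclax, and Bad, Bmf and Bcl2l11, whose BH3-only proteins bind those targets. They were chosen by name. Every probe set that the platform annotation pairs only with 1 of these symbols was taken, which gave 7 of the 41345 probe sets, and where a gene had more than 1, the brightest by its mean over 6 arrays stood for it. All 6 genes lay above the filter on dim genes and so were among the 15526 genes tested, out of 22180 with such a probe set. A further probe set, shared by Bad and Gpr137, was left out.

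The arrays measured RNA of cultured mouse B-ALL cells (acute lymphoblastic leukaemia of the B lineage) driven by the BCR-ABL oncogene. The DHA group (n = 3) was treated with 312 nM dihydroartemisinin, the active form of the artemisinin antimalarials, for 4 h, and the DMSO group (n = 3) with the vehicle dimethyl sulphoxide. Per the labels' protocols the leukaemias carried p185, or its T315I form, and lacked Arf or p53. The sources used here do not say which of these lines was hybridised, nor whether the 6 samples were separate cultures. The spread behind the p-values may therefore be technical.

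Cells commit to apoptosis through mitochondria when the effectors BAX and BAK open the outer mitochondrial membrane. BCL-2, BCL-XL (the main product of Bcl2l1), BCL-W (Bcl2l2) and MCL-1 prevent this by holding the effectors and the activating BH3-only proteins in a groove on their surface. BH3-only proteins release that hold by filling the groove, and navitoclax is a small molecule that imitates them: it fills the groove of BCL-2, BCL-XL and BCL-W but not that of MCL-1. BAD has much the same choice of partners as navitoclax, whereas BIM (Bcl2l11) binds all the anti-apoptotic members. In B-lineage leukaemia, BIM is known as a mediator of the death that follows the loss of BCR-ABL signalling. The series' title concerns navitoclax sensitivity and repression of MCL-1, so the values below address how the RNAs of the drug's own targets and of their partners stood with and without DHA.

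None of the 6 genes was called changed by DHA. The best placed, Bcl2l1, was 11.7% lower by its mean, and the log2 fold changes of the others lay between -0.011 and 0.12. A gene was called changed where its Benjamini-Hochberg adjusted p from limma, a linear model fitted to all 15526 genes at once, was at or under 0.05. The count of 0 of 6 stands against 14 of 15526 genes called, or 0.0902%. That background rested on single arrays: 24 genes were called without DHA replicate 2 and 0 on leaving out any other array, where a count of 0 of 6 was therefore fixed. At an unadjusted limma p under 0.05 the count was 1 of 6, Bcl2l1, against 12% of tested genes. DHA and DMSO values overlapped in all 6 genes, while they did not overlap in 15.8% of tested genes. The median log2 fold change of the 6 was 0.011, against 0.0027 over all tested genes, and their median size regardless of sign was 0.029, against 0.067.

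Values are log2 intensities, where a difference of 1 is a doubling. Probes differ in how brightly they report the same amount of RNA, so each gene's level was set against its own level in the other arrays. The marker check below is the exception: it used a fixed level of 8 for all genes and is only coarse. Arrays hold RNA of all the cells together, so fewer cells of a kind and less RNA per cell cannot be told apart. Precision is limited by the number of arrays. The cells' labelled lineage was checked on markers: 8 of 9 B-cell precursor markers with a probe set had a mean above 8, led by Igll1 at 12.98, while Vpreb1 was at 4.78. No marker of T and NK cells (7 genes), myeloid cells (9), erythroid cells and megakaryocytes (4) or stromal cells (6) reached 8. Of these, 3, 5, 3 and 5 in that order lay above the filter and were tested. None of the tested markers, the 9 B-cell precursor ones among them, was called changed, against 0.0902% of tested genes.

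Bcl2, the founding anti-apoptotic member of the family, measured 9.67, 9.60 and 9.74 in DHA replicates 1 to 3, and 9.84, 9.60 and 9.60 in DMSO replicates 1 to 3. The DHA values lay within the span of the DMSO values, in which replicate 1 stood above the other two. The means thus differed by -0.011 (SE 0.081; adjusted p = 0.971 by limma), with a 95% interval of -0.20 to 0.18. Bcl2 was the only member with a second probe set, a dim one (17216395) under the filter level of 4.52. It measured 4.11 ± 0.016 in DHA arrays and 4.12 ± 0.11 in DMSO arrays (SD, n = 3 each), a difference of -0.010 (exact two-sided permutation p = 0.9).

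Bcl2l1 had the largest difference among the 6 genes. It measured 7.32, 7.53 and 7.43 with DHA, and 7.67, 7.51 and 7.63 with DMSO. DHA replicates 1 and 3 lay below every DMSO array, but DHA replicate 2 lay just above DMSO replicate 2, so the groups overlapped. The group means were 7.43 ± 0.11 with DHA and 7.61 ± 0.084 with DMSO (SD, n = 3 each; exact two-sided permutation p = 0.2, where 0.1 is the smallest possible). The log2 fold change of -0.18 (SE 0.072) had a 95% interval of -0.35 to -0.0080, unadjusted for the number of genes, which left out 0 narrowly (limma unadjusted p = 0.0426, adjusted p = 0.395). Changes of this size or larger were common on these arrays, since 13.0% of tested genes had one. Without DHA replicate 1 the log2 fold change was -0.13 (limma unadjusted p = 0.131), and without DHA replicate 2 it was -0.23 (limma unadjusted p = 0.0200). The annotation does not say which exons the probe set covers, so BCL-XL and the shorter pro-apoptotic form BCL-XS were not separated.

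Bcl2l2, which encodes BCL-W, leaned the other way. Its values were 6.91, 6.97 and 7.11 with DHA, and 6.92, 6.92 and 6.78 with DMSO. DHA replicate 3 was the highest array and DMSO replicate 3 the lowest, while the other four lay within a narrow band in which the groups overlapped. DHA exceeded DMSO by 0.12 on the log2 scale (SE 0.071; adjusted p = 0.554 by limma; 95% interval -0.050 to 0.29), with means of 6.99 ± 0.10 for DHA and 6.88 ± 0.082 for DMSO (SD, n = 3 each).

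For the 3 BH3-only genes the log2 fold changes lay between -0.00070 and 0.035. Bad encodes the BH3-only protein that growth factor signalling holds inactive through phosphorylation. It measured 6.66, 6.68 and 6.66 with DHA, and 6.66, 6.61 and 6.73 with DMSO. Its log2 fold change, -0.00070 (SE 0.049; adjusted p = 0.998 by limma; 95% interval -0.12 to 0.12), was smaller in size than that of 99.3% of tested genes. Expressed as folds, the interval ran from 0.922 to 1.08.

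Bmf encodes a BH3-only protein that is tethered to myosin motors in healthy cells. Its values were 6.35, 6.39 and 6.38 with DHA, and 6.42, 6.23 and 6.40 with DMSO. The DHA arrays lay close together inside the DMSO span, whose low end was DMSO replicate 2. Between the group means lay 0.023 (SE 0.062; adjusted p = 0.911 by limma; 95% interval -0.12 to 0.17).

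Bcl2l11, which encodes BIM, measured 8.63, 8.70 and 8.61 with DHA, and 8.67, 8.52 and 8.64 with DMSO. Again DMSO replicate 2 was the lowest array, and the remaining arrays overlapped. DHA was 0.035 above DMSO (SE 0.057; adjusted p = 0.845 by limma; 95% interval -0.10 to 0.17), and as folds that interval ran from 0.932 to 1.13. The splice forms BIM-EL, BIM-L and BIM-S were not separated by the single probe set.

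**Figure D1:**
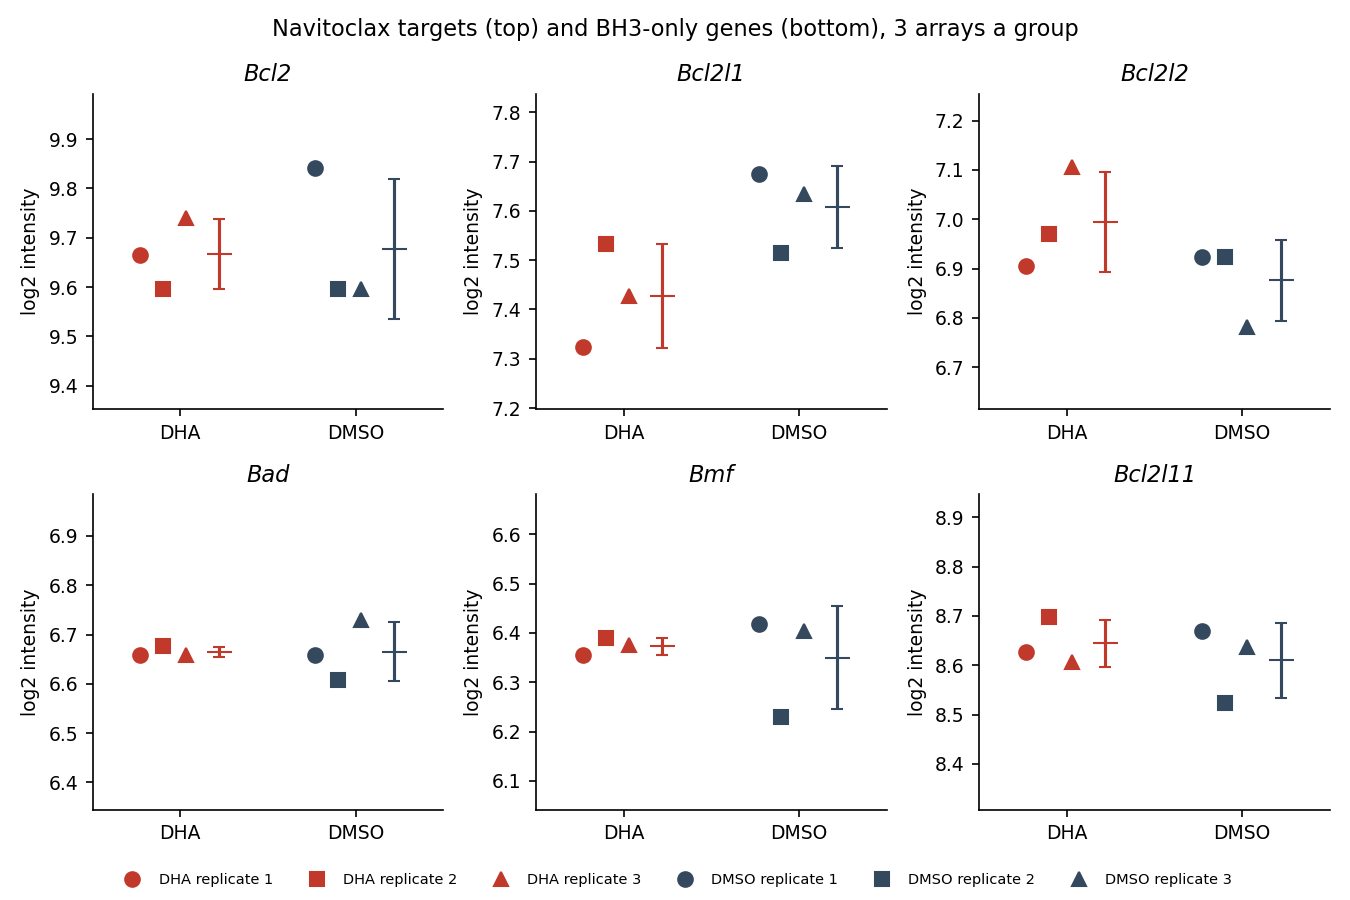
Log2 intensity (vertical axis, the same span of values in each panel) of the 6 genes on the 3 DHA arrays, left in each panel, and the 3 DMSO arrays, right, with each group's mean and SD beside the points. The groups overlap in every panel, and the largest distance between means is that of Bcl2l1, at 7.43 with DHA and 7.61 with DMSO.

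Part of the spread followed single arrays. DMSO replicate 2 was the lowest of the 3 DMSO arrays in 5 of the 6 genes, Bcl2l2 being the exception and Bcl2 being only just below replicate 3, whereas it was the lowest in 33.2% of all tested genes. Its part in the small positive differences of Bmf and Bcl2l11 can be read from leaving it out: the log2 fold changes were then -0.037 for Bmf and -0.0086 for Bcl2l11. The SD was smaller among DHA than among DMSO arrays in all 3 BH3-only genes and in 4 of the 6 genes in all, against 52.8% of tested genes. For Bad it was 0.010 with DHA and 0.060 with DMSO, and for Bmf 0.017 with DHA and 0.10 with DMSO. Some of this closeness is exact: Bad had the same deposited value, 6.65865, in DHA replicates 1 and 3 and DMSO replicate 1, and 32.8% of all probe sets had a value shared by 2 or more arrays.

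The precision of these comparisons can be stated as the change that would have been called. Among the 14 genes called with all 6 arrays, the largest unadjusted limma p was 4.15e-05. This limit holds for that fit alone, since leaving out any array but DHA replicate 2 left no called gene to set one. At each gene's own standard error, a log2 fold change that gives this p would be 0.46 for Bad, 0.53 for Bcl2l11, 0.58 for Bmf, 0.66 for Bcl2l2, 0.67 for Bcl2l1 and 0.76 for Bcl2. These limits are approximate, since the Benjamini-Hochberg cut moves slightly with the number of genes called. Differences well below them would not be called in that fit, so a missing call does not show that a gene stayed level. The intervals are the tighter statement: over the 6 genes the highest upper bound was a fold of 1.22, that of Bcl2l2, and the lowest lower bound a fold of 0.784, that of Bcl2l1.

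**Figure D2:**
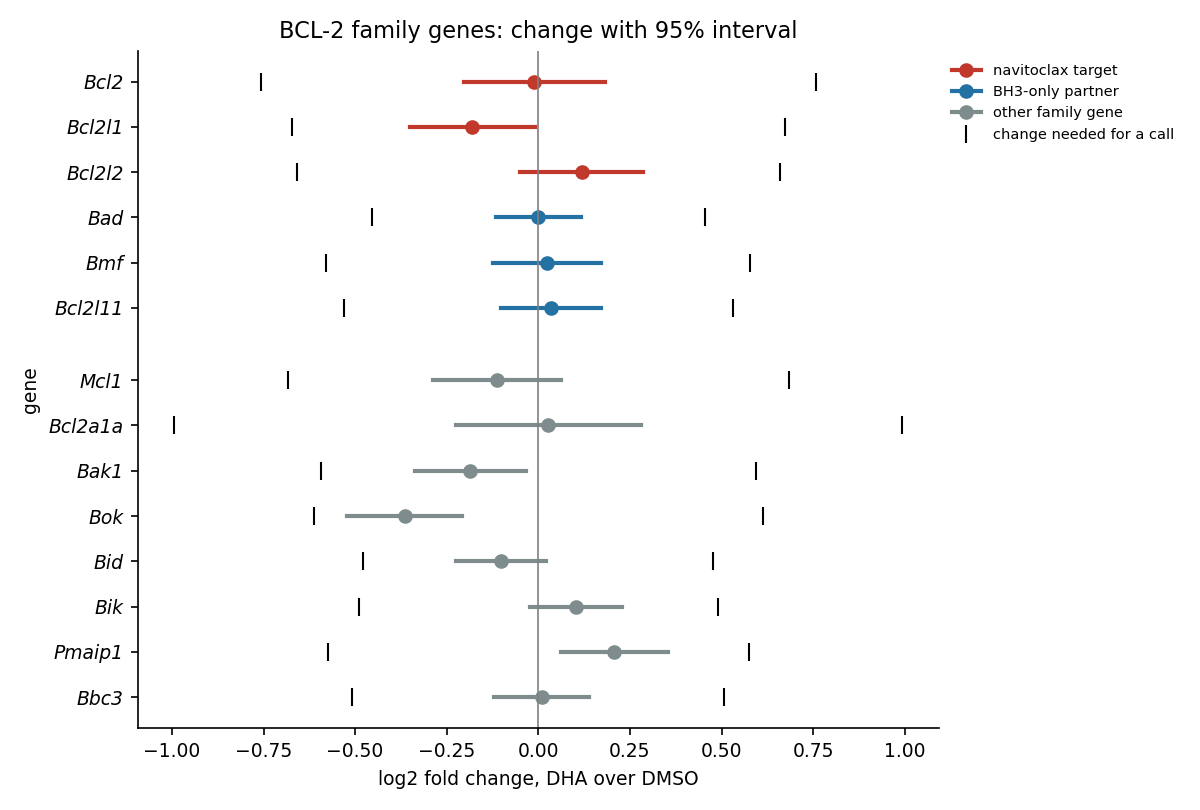
Log2 fold change of DHA over DMSO (horizontal axis) for the 3 navitoclax targets, the 3 BH3-only partners and 8 other tested family genes, with 95% limma intervals as bars and, as black ticks, the approximate change each gene would need to be called in the fit of all 6 arrays. No point reaches its tick; the interval of Bcl2l1 runs from -0.35 to -0.0080 and those of Bad, Bmf and Bcl2l11 straddle 0.

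**Figure D3:**
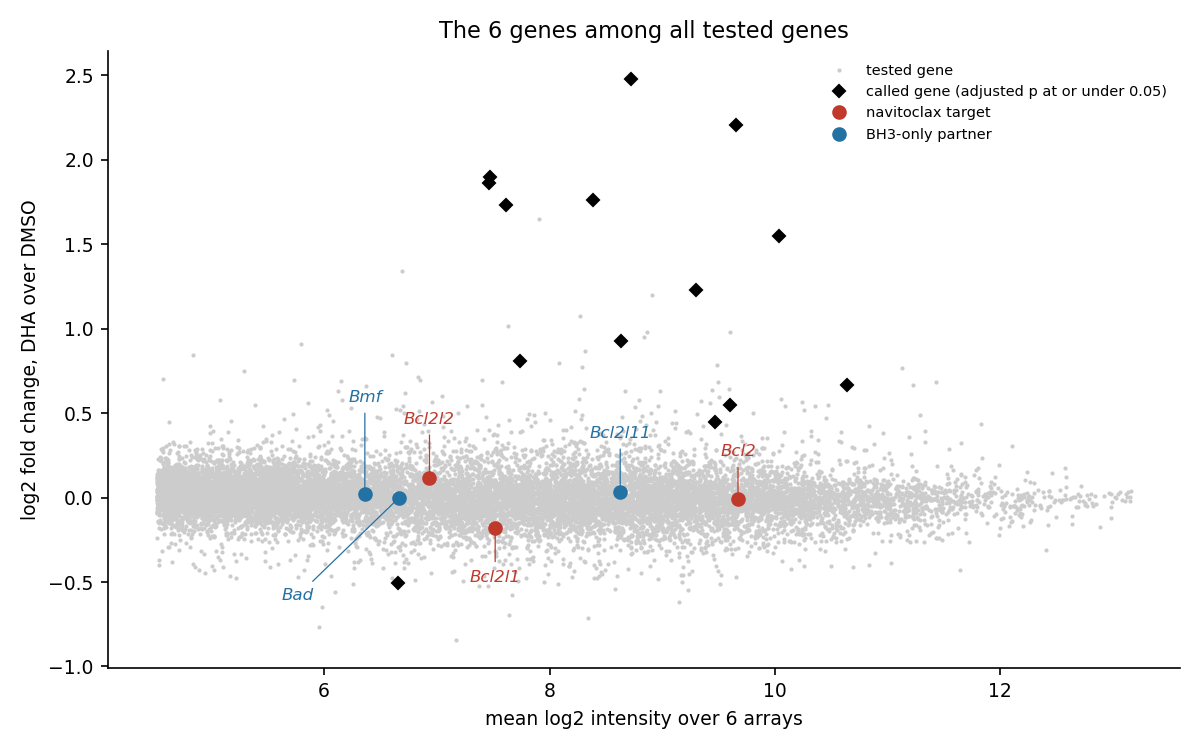
Log2 fold change of DHA over DMSO (vertical axis) against mean log2 intensity over the 6 arrays (horizontal axis) for 15526 tested genes in grey, with the 14 called genes as black diamonds and the 6 genes of interest in colour. The 6 lie inside the grey band, between -0.18 for Bcl2l1 and 0.12 for Bcl2l2.

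Death of a cell depends on the balance between BH3-only proteins and the proteins that hold them, so the difference of each BH3-only gene from each target was also taken within every array. Only changes in such a difference are informative, not its size. Relative to Bcl2l1, Bcl2l11 stood at 1.30, 1.17 and 1.18 with DHA, and at 0.99, 1.01 and 1.00 with DMSO, all on the log2 scale. The 3 DMSO arrays thus agreed within 0.0077 (SD), every DHA array lay above them, and the means differed by 0.21. Relative to Bcl2l1, Bmf was also higher in every DHA array than in any DMSO array (means -1.05 with DHA and -1.26 with DMSO), as was Bad (means -0.76 with DHA and -0.94 with DMSO). These 3 pairs share the values of Bcl2l1 and are not independent of each other. Set against the same Bcl2l1 values, 30.9% of all other tested genes had DHA and DMSO differences that did not overlap, and 30.5% did so with the higher values in DHA. Relative to Bcl2 or Bcl2l2, the groups overlapped for each of the 3 BH3-only genes, against 7.39% and 21.6% of tested genes with no overlap. The difference in means for Bcl2l11 was 0.045 relative to Bcl2 and -0.084 relative to Bcl2l2. No p-value was computed for these pairs, which were taken after the values of the genes had been seen.

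**Figure D4:**
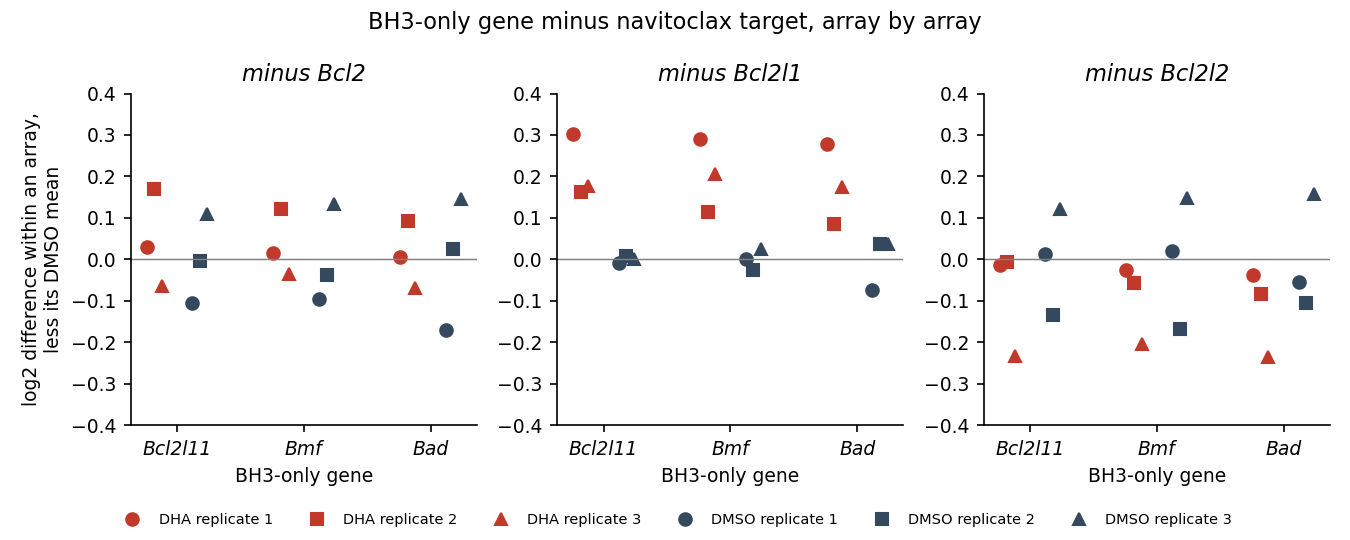
Log2 intensity of Bcl2l11, Bmf or Bad minus that of Bcl2 (left), Bcl2l1 (middle) or Bcl2l2 (right) on the same array, less the mean of the 3 DMSO arrays (vertical axis), with DHA points left of DMSO points. Only against Bcl2l1 do the DHA and DMSO points separate, by a difference in means of 0.21 for Bcl2l11, 0.20 for Bmf and 0.18 for Bad.

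Mcl1 encodes an anti-apoptotic protein that navitoclax leaves free. Its brighter probe set measured 9.67, 9.66 and 9.45 with DHA, and 9.67, 9.67 and 9.78 with DMSO. DHA replicates 1 and 2 thus sat at the level of DMSO replicates 1 and 2. The log2 fold change was -0.11 (SE 0.073; adjusted p = 0.582 by limma), and -0.043 without DHA replicate 3. With the mean of the Mcl1 probe sets it was -0.019, and with the probe set of highest variance the sign turned, at 0.075. The change of each gene relative to Mcl1 was tested on the differences within an array. It was 0.15 for Bcl2l11, 0.11 for Bad, 0.14 for Bmf, 0.10 for Bcl2, 0.23 for Bcl2l2 and -0.066 for Bcl2l1. Exact two-sided permutation p-values of these 6 tests were 0.2 for Bcl2l11 and Bad, 0.3 for Bmf and Bcl2l2, 0.5 for Bcl2 and 0.7 for Bcl2l1 (n = 3 each; 0.1 is the smallest possible, and the lowest Benjamini-Hochberg adjusted value was 0.45). The groups overlapped in all 6, against 21.4% of other tested genes whose difference from Mcl1 did not overlap. With the dimmer Mcl1 probe set in its place, the sign turned for Bcl2, Bad, Bmf and Bcl2l11, with values of -0.086, -0.076, -0.052 and -0.041. It then stood at 0.043 for Bcl2l2 and at -0.26 for Bcl2l1. Single arrays moved these differences too: without DHA replicate 3 they were 0.11 for Bcl2l2, 0.046 for Bad, 0.065 for Bmf, 0.096 for Bcl2l11 and -0.0035 for Bcl2, and without DHA replicate 1 that of Bcl2l1 was 0.025.

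The rest of the BCL-2 family gives the setting. Of 8 other tested genes 0 were called in either direction, against 0.0902% of tested genes. In 4 of the 8 (Bok, Bak1, Pmaip1 and Bid) the groups did not overlap, against 15.8% of tested genes. Among the effectors, Bok, a relative of BAX and BAK, measured 7.67, 7.50 and 7.69 with DHA and 8.05, 7.94 and 7.96 with DMSO. At -0.37 on the log2 scale (SE 0.066; adjusted p = 0.124 by limma) its difference was larger in size than that of any of the 6 genes, and its groups did not overlap. For Bak1, which encodes BAK, the groups also lay apart, at a difference of -0.19 (adjusted p = 0.331 by limma). Bax is not analysed here.

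Among the other BH3-only genes, Pmaip1, which encodes NOXA, a partner of MCL-1, measured 6.27, 6.25 and 6.43 with DHA and 6.08, 6.12 and 6.12 with DMSO. DHA was higher by 0.21 (SE 0.061; adjusted p = 0.270 by limma), with no overlap. Bid, whose product links death receptors to mitochondria, measured 8.36, 8.38 and 8.48 with DHA and 8.49, 8.53 and 8.49 with DMSO, a difference of -0.10 with no overlap. Bik had 0.10 and Bbc3, which encodes PUMA, 0.0091. The limma adjusted p of these 3 genes ran from 0.492 to 0.965. Hrk lay under the filter. Of the other anti-apoptotic genes beside Mcl1, Bcl2l10 also lay under the filter. The anti-apoptotic gene Bcl2a1a, one of several near-identical Bcl2a1 copies whose probe sets may share signal, had 0.027 (limma adjusted p = 0.943).

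BIM, BMF and BAD are also controlled after translation, by proteins that hold them away from mitochondria. Dynein light chains tether BIM and BMF, and 14-3-3 proteins bind phosphorylated BAD. Of 9 such genes 0 were called, against 0.0902% of tested genes. The log2 fold change was below 0 in 9 of 9, against 7553 of all 15526 tested genes. Their median was -0.060, against 0.0027 for all tested genes. These genes were measured on the same arrays, so their signs are not independent, and the count was not tested. The count below 0 was 8 after quantile normalization and between 7 and 9 over the settings tried. The 3 with the smallest p were the dynein light chain Dynll2 (-0.12, limma adjusted p = 0.501), the 14-3-3 gene Sfn (-0.10, limma adjusted p = 0.561) and the dynein light chain Dynll1 (-0.15, limma adjusted p = 0.656). For each of these 3 the groups overlapped. The value of Dynll1 rested on single DMSO arrays, at -0.032 without DMSO replicate 1 and -0.25 without DMSO replicate 2. Sfn had -0.066 without DMSO replicate 2 and -0.16 without DMSO replicate 3.

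Kinases and phosphatases that act on BAD or BIM numbered 13 tested genes, of which 0 were called, against 0.0902% of tested genes. Their median log2 fold change was -0.0016, against 0.0027 for all tested genes. Akt1, a kinase that phosphorylates BAD, measured 9.97, 10.12 and 10.22 with DHA and 10.35, 10.24 and 10.31 with DMSO. The difference was -0.20 (SE 0.072; adjusted p = 0.354 by limma). Prkaca, the catalytic subunit of protein kinase A, had -0.15 (limma adjusted p = 0.373) and the kinase Pim3 -0.18 (limma adjusted p = 0.453), or -0.10 without DHA replicate 3. The groups did not overlap for 2 of the 13, Akt1 and Prkaca, a share similar to the 15.8% of tested genes. With the probe set of highest variance the sign of Prkaca turned, at 0.033.

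Of 11 tested transcription factors known to act on genes of the set, 1 was called, against 0.0902% of tested genes. Nfkb1 and Trp53 were also listed but had no probe set paired only with them. Ddit3, which encodes CHOP, a stress factor reported to repress Bcl2 and to induce Bcl2l11, measured 10.13, 9.56 and 10.19 with DHA, and 7.62, 7.46 and 7.36 with DMSO. It rose by 2.48 on the log2 scale (SE 0.17; limma adjusted p = 0.0225), the largest change of all tested genes. The intervals of Bcl2 and Bcl2l11 both spanned 0. Whether CHOP acted on either gene was not tested. The call for Ddit3 was lost on leaving out any array but DHA replicate 2, with limma adjusted p between 0.0822 and 0.280 and the log2 fold change never below 2.37. The call was also lost with each probe set tested on its own (limma adjusted p = 0.0715) and without both samples of a shared title code (limma adjusted p = 0.106). The NF-kB subunits Rel (0.43, limma adjusted p = 0.126) and Rela (0.21, limma adjusted p = 0.260) missed the threshold. Foxo3, an activator of Bcl2l11, had a log2 fold change of 0.014, and Stat5a and Stat5b, which drive Bcl2l1 downstream of BCR-ABL, had -0.028 and -0.068. The groups overlapped for Foxo3 and Stat5a but not for Stat5b (limma adjusted p = 0.566). In 6 of the 11 factors (Ddit3, Rel, Rela, Stat5b, Jun and Creb1) the groups did not overlap, against 15.8% of tested genes. Jun had -0.22 (limma adjusted p = 0.321) and Creb1 0.099 (limma adjusted p = 0.510). Foxo3, Stat5a and Stat5b were chosen for their roles, with their values already seen. Jun and Creb1 are named to complete the 6.

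The promoters of the 6 genes were searched for binding motifs of some such factors. No NF-kB motif was searched. RefSeq (GRCm38.p6) gave 12 windows for the 6 genes, each from 250 bases before to 50 after a transcription start. Both strands were searched for GTAAACA (FOXO), TGATGNAA (the composite element of ATF4 and CHOP), TTCNNNGAA (STAT5) and TGACGTCA (CREB). The FOXO letters were found in 1 of the 12 windows, a start of Bcl2l11, and in 3.65% of 32851 mouse windows. The other 3 motifs were in none of the 12, against 3.97% of all windows for TGATGNAA, 8.3% for TTCNNNGAA and 1.79% for TGACGTCA. The Bcl2l11 window is printed because it holds the one match, which is in capitals and begins 227 bases before the start site. It lies on the plus strand at chr2:128125788-128126087.
Bcl2l11: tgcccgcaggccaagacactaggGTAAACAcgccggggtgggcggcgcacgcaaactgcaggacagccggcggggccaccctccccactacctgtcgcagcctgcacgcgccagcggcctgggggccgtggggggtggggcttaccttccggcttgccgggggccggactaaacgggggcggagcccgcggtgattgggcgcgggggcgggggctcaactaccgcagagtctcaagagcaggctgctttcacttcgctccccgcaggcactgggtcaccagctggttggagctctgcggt
A match is a description of the letters only. The second window of Bcl2l11 and the windows of the other genes held none of the 4 motifs, which says nothing about the factors themselves.

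The genes whose 6 values ran most like a member's were taken by Pearson correlation over the 6 arrays, as a description. Genes with a predicted-gene or clone name were left out, so a closer gene may exist among them. The points share arrays, scaling and treatment groups. For Bcl2l1 the closest were Sephs1 (r = 0.998), Garre1 (0.994) and Arpc1a (0.990), with log2 fold changes of -0.11, -0.16 and -0.16. Bcl2 ran closest to Acsf2 (0.992), Poc5 and Dcaf4, and Bcl2l2 to Sf3a3 (0.991), Gnb1l and Clpx. Bad ran closest to Car8 (0.995), Vps52 and Rufy2, Bmf to Psmb6 (0.995), Phka2 and Smim13, and Bcl2l11 to Col22a1 (0.988), Ankrd16 and Slc39a2. No other gene of the 6 was among these. Between genes of the 6, r ran from -0.47 (Bcl2l2 with Bad) to 0.88 (Bmf with Bcl2l11).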

How the data were processed

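The authors deposited 1 table of log2 intensities, with a value for each of 41345 probe sets on 6 Affymetrix arrays. RMA and Partek version 6.6 were used, per the submitters' processing notes; their settings and the genome build are not stated in the sources used here. This summary tends to understate changes of dim genes. Array medians lay between 5.25 and 5.31. The platform annotation named 23521 probe sets with 1 gene, updated through Entrez identifiers to RefSeq symbols (GRCm38.p6). For each gene the probe set with the highest mean was used, and genes under the 30th percentile of the mean (4.52) were left out. The comparison used limma (version 3.58.1, run in R 4.3.3, default moderation, two-sided, Benjamini-Hochberg over 15526 genes), which was tested on simulated data. Group means of single probe sets and of differences from Mcl1 were compared with exact two-sided permutation tests. Replicate numbers follow accession order. The genes described, the pathway lists and the rule for naming other genes were chosen with earlier results of these data known. Named were the 6 genes, every tested gene of the family lists and the 3 genes most alike each member. Of the other lists, called genes and the 3 with the smallest p were named. Foxo3, Stat5a, Stat5b, Jun, Creb1, Nfkb1, Trp53 and markers that check the lineage were named outside this rule.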

Additional observations from a re-analysis of the deposited data

How the results depend on the processing

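No paired analysis was possible because replicate numbers came from accession order and only 1 unexplained title code is shared, by DHA replicate 2 and DMSO replicate 3. None of the 6 genes was called under any of the 19 alternatives, among them leaving out each array, other filters, other scalings, other probe sets, other moderation and a threshold of 0.1. In 6 of these alternatives (leaving out any array but DHA replicate 2, and leaving out both samples of the shared code) no gene at all was called, so the count was fixed there. In the others between 2 and 80 genes were called, against 14. Over all, the lowest limma adjusted p of Bcl2l1 was 0.297. The log2 fold change of Bcl2l1 kept its sign throughout, from -0.23 to -0.13 on leaving out 1 array, as did that of Bcl2l2, from 0.062 to 0.16. The signs of the other four turned on leaving out 1 array, with ranges of -0.052 to 0.071 for Bcl2, -0.029 to 0.031 for Bad, -0.037 to 0.057 for Bmf and -0.0086 to 0.064 for Bcl2l11. Bcl2 also turned with a term for the leading digit of the title code (0.0093), and Bad under quantile normalization (0.0072) and without both samples of the shared code (0.025). Of the other genes, Bcl2a1a ranged from -0.095 to 0.11 and Bbc3 from -0.029 to 0.038 on leaving out 1 array. Without both samples of the shared code these 2 had -0.093 and -0.043, and Bcl2a1a had -0.015 with the digit term. With the probe set of highest variance, Mcl1 had 0.075 against -0.11 with the brightest, and Prkaca 0.033 against -0.15. Relative to Mcl1, leaving out 1 array gave -0.0035 to 0.20 for Bcl2 and -0.14 to 0.025 for Bcl2l1, and the dimmer Mcl1 probe set gave -0.086 for Bcl2, -0.076 for Bad, -0.052 for Bmf and -0.041 for Bcl2l11. The causes were not tested.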
